A study of Sus scrofa with 6 samples.

Results

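The genes described here are those of the mitochondrial genome, found as all genes of the deposited counts whose exons lie on the chromosome named MT. They were 35 of 25149 genes, 13 that encode proteins and 22 tRNA genes; the 2 ribosomal RNA genes were not analysed here. The cells were wild-type Sertoli cells from the testes of 3-to-5-day-old Duroc-Landrace pigs (neonatal pig Sertoli cells, NPSC), from 3 litters, isolated by enzyme digestion and kept in DMEM with 10% fetal bovine serum. In baseline NPSC (n = 3 plates) part of the medium was replaced by DMEM. In complement NPSC (n = 3 plates) it was replaced by pooled AB human serum with its complement preserved, in equal parts with the medium, for 90 min. Since no plate received serum without active complement, serum and complement cannot be told apart. The sources used here do not say which litter a plate came from or whether plates with the same number belong together, so p-values measure the spread between these plates.

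The mitochondrial genome is a small circle that is copied and transcribed inside the organelle. Its proteins are all subunits of oxidative phosphorylation: the ND genes encode parts of complex I (NADH dehydrogenase), CYTB a part of complex III, the COX genes the core of complex IV (cytochrome c oxidase) and the ATP genes parts of the ATP synthase. Both strands are transcribed into long precursors, and the tRNAs that lie between the protein-coding genes are cut out of them, which frees the mRNAs. Sertoli cells are known for taking up glucose and passing lactate on to germ cells, which use it in their own mitochondria. In the files 12 protein-coding and 14 tRNA genes lie on the + strand, and ND6 and 8 tRNA genes on the − strand.

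Counts on genes came to between 6796183 and 8371923 per baseline NPSC library and between 3641518 and 6403606 per complement NPSC library. Of 14 Sertoli cell marker genes, 10 were matched to the files and all 10 had counts, with a summed level of 5093 to 6980 CPM (counts scaled to a common library total) in baseline NPSC and 3525 to 4397 in complement NPSC, lower in all 3 complement libraries; AMH, INHBB, KITLG and SOX8 were not matched by name. For 4 Leydig cell genes, with 0 counts of CYP11A1, the sum was 844 to 1156 CPM in baseline and 683 to 823 CPM in complement NPSC. The Leydig sum too was lower in all 3 complement libraries. For 5 peritubular myoid genes, with 0 counts of MYH11, the sum was 2343 to 3374 CPM against 2201 to 3208 CPM. Macrophage genes came to 53.7 to 110 CPM and germ cell genes to 17.2 to 34.6 CPM over the 6 libraries. For endothelial genes (3 of 5 matched) the sum was 295 to 546 CPM, and for erythroid genes (2 of 4 matched) 4.37 to 47.2 CPM. How far these levels bear on the mitochondrial values was not tested. In bulk RNA, fewer cells of a type and less RNA per cell cannot be told apart. Counts on 48 olfactory receptor genes, which serve as a measure of counts outside expressed genes, came to 1.18 to 2.15 CPM per kilobase in baseline NPSC and to 4.01, 4.43 and 1.51 in complement replicates 1, 2 and 3.

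Mitochondrial genes held 6.59%, 7.41% and 5.05% of all counts in baseline NPSC replicates 1, 2 and 3 and 6.44%, 6.49% and 6.61% in complement NPSC replicates 1, 2 and 3. The mean was 6.35% ± 1.20 (SD, n = 3) in baseline and 6.52% ± 0.0883 (SD, n = 3) in complement NPSC, a difference of 0.166 percentage points that is smaller than the spread of the baseline libraries (exact two-sided permutation p = 0.9; 3 plates against 3 cannot go below 0.1). All 3 complement libraries lay inside the range of the baseline libraries. Counting error is small beside this spread, since the 95% Wilson interval of a library's share was at most 0.0253 points to either side. On the log2 scale the share differed by 0.055 (SE 0.16) towards complement NPSC when divided by the library total, and by −0.12 when divided by the library size of nuclear genes after TMM scaling, so no direction can be given.

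**Figure D1:**
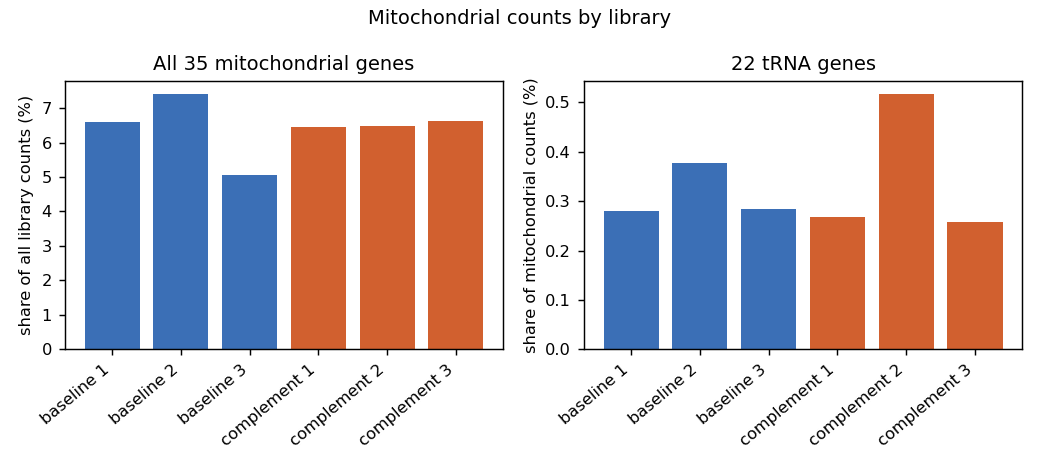
Bars give, for each of the 6 libraries, the share of all counts on the 35 mitochondrial genes (left, percent) and the share of mitochondrial counts on the 22 tRNA genes (right, percent), both from 0. The mitochondrial share is highest in baseline replicate 2 (7.41%) and lowest in baseline replicate 3 (5.05%), and the tRNA share is highest in complement replicate 2 (0.517%).

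Per unit of length, COX1, the catalytic subunit of complex IV, was the most counted of the 35 genes in all 6 libraries. Its density was 13146 to 16689 CPM per kilobase of exon, and it took 2.57%, 2.495% and 2.03% of all counts in baseline and 2.53%, 2.11% and 2.58% in complement NPSC. By number of counts COX1 held rank 3 among all genes in each library. COX3, another core subunit of complex IV, followed at a density of 7926 to 12821, below COX1 in 6 of 6 libraries. It took 0.832%, 1.01% and 0.621% of all counts in baseline and 0.740%, 0.841% and 0.763% in complement NPSC. These are the 2 genes whose place in the order was the same in every library.

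Below them, by mean density, came ATP8 (3963 to 8098), COX2 (4393 to 7503), ATP6 (3409 to 6146), ND1 (3102 to 5205), ND5 (3150 to 4427), ND6 (2463 to 4181) and ND4 (2445 to 4205). Neighbours in this stretch mostly did not keep their order: ATP8 lay above COX2 in 5 libraries of 6, ATP6 above ND1 in 4, and ND6 above ND4 in 5, whereas COX2 lay above ATP6 in 6. The lowest densities were those of ND2 (1325 to 2993), CYTB (1736 to 2252), ND4L (1756 to 2267) and ND3 (1148 to 1949). ND2 lay above CYTB in only 3 libraries of 6, so the data do not order them. All 13 protein-coding genes held a density rank of 40 or better among all genes of the files in every library.

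Some of these genes overlap in the files, which bears on how their reads could be counted. ATP8 (MT:8959-9162) shares 43 bases with ATP6 (MT:9120-9800), ND4L (MT:11069-11365) shares 7 with ND4 (MT:11359-12736), and ND5 (MT:12935-14755) shares 17 with ND6 (MT:14739-15266), which is on the other strand. The sources used here do not state how a read that touches 2 genes was counted, nor whether strand was used. ND6, the lone protein-coding gene of the − strand, therefore cannot be told apart from antisense RNA of the + strand precursor. Copies of mitochondrial DNA in the nuclear genome can share reads with all of these genes, and how reads with several matches were treated is not stated either. The density of ATP8 was 1.41, 1.32 and 1.16 times that of ATP6 in baseline and 1.29, 1.40 and 1.43 times in complement NPSC, with overlapping groups.

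Mitochondrial genes were then compared between baseline and complement NPSC with edgeR's quasi-likelihood test on all genes. Of the 35 members, 27 passed the filter on low counts (13 protein-coding and 14 tRNA genes), and 0 of the 27 had an adjusted p under 0.05; over all 17512 genes tested 0.103% did. At an unadjusted p under 0.05 there was 1 member, a tRNA gene, where 15.2% of all tested genes passed. The DESeq2 Wald test also called 0 members (0.288% of all genes), with 1 at an unadjusted p under 0.05 (12.0%).

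Among the protein-coding genes, log2 fold changes ran from −0.24 for COX3 (SE 0.47, adjusted p = 0.790, edgeR) to 0.047 for ND2 (SE 0.39, adjusted p = 0.954), with a median of −0.12 beside 0.018 for all tested genes. For COX1 it was −0.13 (SE 0.61, adjusted p = 0.920, edgeR). Of the 13, 12 were below 0 and 1 was above, but the signs are not firm: the median was 0.12 without baseline replicate 2 and 0.11 with olfactory receptor density as a covariate. The standard errors of 0.28 to 0.61 leave room for changes of that size in either direction. In CPM, the groups were apart for 0 of the 13 genes, against 14.3% of all tested genes.

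The tRNA gene with the most counts, on the − strand right after COX1 (MT:8059-8129), was the member with the lowest p. It had 60.8, 52.8 and 60.0 CPM in baseline and 53.5, 47.0 and 43.9 CPM in complement NPSC, and the groups overlap by a narrow margin. edgeR put its log2 change from baseline to complement at −0.44 (SE 0.18, unadjusted p = 0.0288, adjusted p = 0.304). The highest log2 fold change of a tested member, 0.96 (SE 0.52, adjusted p = 0.370, edgeR), was that of a tRNA gene right after ND1 (MT:4877-4945), with 12, 17 and 7 counts in baseline and 11, 19 and 19 counts in complement NPSC. In CPM this gene and 1 other tRNA gene (MT:12806-12864), with 4 to 8 counts per library, were higher in all 3 complement libraries than in any baseline library. That is 2 of 22 tRNA genes, near the 9.79% of all genes with a count for which this held.

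The balance among the protein-coding genes was described as the share of each in the summed counts of all 13, which takes out the level of the genome as a whole. COX1 held 39.1%, 33.8% and 40.4% in baseline NPSC replicates 1, 2 and 3 and 39.3%, 32.7% and 39.1% in complement NPSC replicates 1, 2 and 3. Complex IV genes together held 52.9% to 58.7%, complex I genes 31.1% to 35.4%, the ATP genes 6.22% to 8.16%, and CYTB 3.46% to 3.93%. For 0 of the 13 genes did the 3 complement libraries lie on the same side of all 3 baseline libraries; on this scale the groups were apart for 8.78% of all tested genes. Without baseline replicate 2 the count was 4 (19.3% of all tested genes) and without complement replicate 2 it was 2 (11.8%). Without replicate 2 of both conditions, the groups were apart for 6 of the 13, and for 24.6% of all tested genes.

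**Figure D2:**
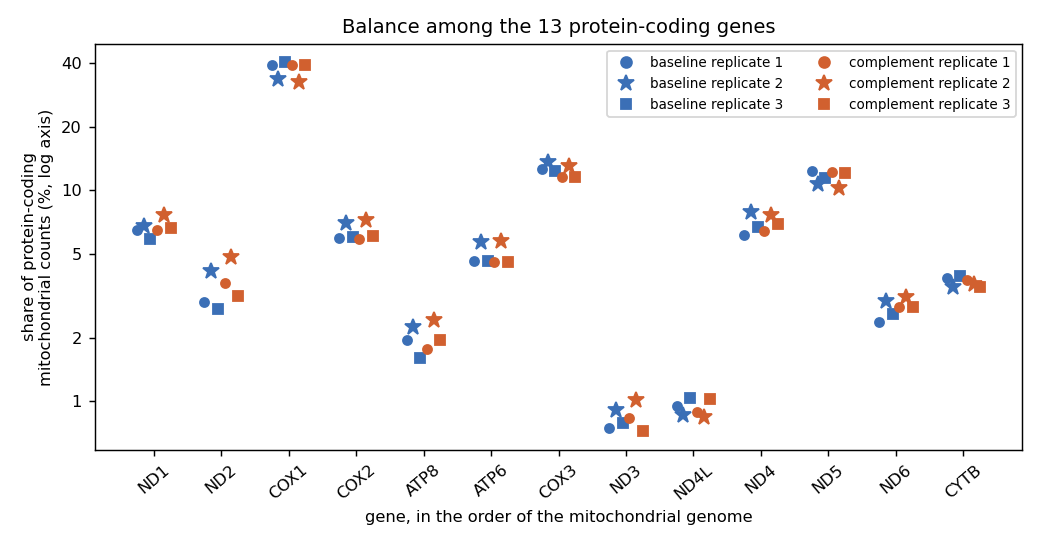
Points give the share (percent, log axis) of each of the 13 protein-coding genes in their summed counts, in the order of the genome, with 1 point per library; color marks the condition and shape the replicate number. The stars of replicate 2 lie apart from the other libraries in both colors for 12 of 13 genes, as for COX1 at 33.8% and 32.7% against 39.1% to 40.4%.

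The libraries that stood apart in this balance were not those of a condition but the libraries numbered 2. For 12 of 13 genes both replicate 2 libraries lay outside the range of the other 4, 9 above it and 3 below it. Over all tested genes on this scale, both libraries numbered 2 lay above the other 4 for 0.600% and below them for 9.46%. In CPM of the library total these were 3.84% and 4.56%, so they depend on the scale. By share of protein-coding mitochondrial counts, both libraries numbered 1 lay outside the other 4 for 3 of the 13 genes (10.2% of all tested genes). For number 3 this held for 1 gene (15.5%). This was noticed in these values and is given as a description, without a test; because the shares of a library sum to a fixed total, the 13 genes do not move independently.

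By log2 share against the other libraries of its condition, ND2 deviated most in replicate 2, by 0.54 in baseline and 0.52 in complement NPSC. This complex I subunit held 2.97%, 4.14% and 2.75% of protein-coding mitochondrial counts in baseline and 3.61%, 4.84% and 3.16% in complement NPSC, highest in replicate 2 both times. The ratio of COX1 counts to ND2 counts was accordingly lowest in replicate 2, at 13.2, 8.15 and 14.7 in baseline and 10.9, 6.75 and 12.4 in complement NPSC. ATP6, the ATP synthase subunit of the proton channel, held 4.603%, 5.67% and 4.61% in baseline and 4.58%, 5.74% and 4.56% in complement NPSC. For ATP6 the libraries numbered 1 and 3 differed little, and both libraries numbered 2 lay well above them. The share of COX2 followed the same course, with 5.92%, 6.99% and 6.01% in baseline and 5.86%, 7.20% and 6.10% in complement NPSC.

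Other complex I genes were less far apart. ND4 held 6.15%, 7.84% and 6.69% in baseline and 6.44%, 7.64% and 6.89% in complement NPSC. ND1 held 6.46%, 6.74% and 5.90% in baseline and 6.48%, 7.62% and 6.64% in complement NPSC. In both genes the replicate 2 libraries were the highest, by a small margin for ND1 in baseline NPSC. The remaining genes above the others in both replicate 2 libraries were ATP8, COX3, ND3 and ND6, with shares in baseline and complement replicate 2 of 2.24% and 2.41%, 13.6% and 13.02%, 0.913% and 1.01%, and 2.99% and 3.11%.

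COX1, ND5 and ND4L were the genes with lower shares in both replicate 2 libraries. ND5, the largest complex I subunit of this genome, held 12.3%, 10.8% and 11.4% in baseline and 12.2%, 10.3% and 12.0% in complement NPSC. ND4L held 0.952%, 0.862% and 1.04% in baseline and 0.889%, 0.841% and 1.02% in complement NPSC. CYTB was the gene whose replicate 2 libraries, at 3.47% and 3.59%, lay within the range of the others. As a share of all library counts, the same 9 genes were higher in both libraries numbered 2 than in the other 4, against 3.84% of all tested genes, and 0 of the 13 were lower, against 4.56%. COX1, with its lower share of the mitochondrial counts in replicate 2, took 2.495% of the library in baseline replicate 2, inside the range of the other 4, and 2.11% in complement replicate 2, the lowest of its condition.

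Placed side by side, baseline replicate 2 and complement replicate 2 differed by 2.38 percentage points, counted as the part of the protein-coding mitochondrial counts that would have to be placed on other genes to make 2 libraries alike. Each of them differed from the 4 other libraries by 6.76 to 9.32 points. The libraries numbered 1 and 3 differed among themselves, across and within conditions, by 1.23 to 2.66 points. Relative to the other libraries of their condition, the replicate 2 libraries deviated with the same sign in baseline and complement NPSC for 13 of 13 genes, with a Pearson's r of 0.939 across the 13 genes, which share the library totals and are not independent. For replicates 1 and 3 it was 10 and 11 of 13 genes and r was 0.489 and 0.670; replicate 2 is among the libraries these are measured against.

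**Figure D3:**
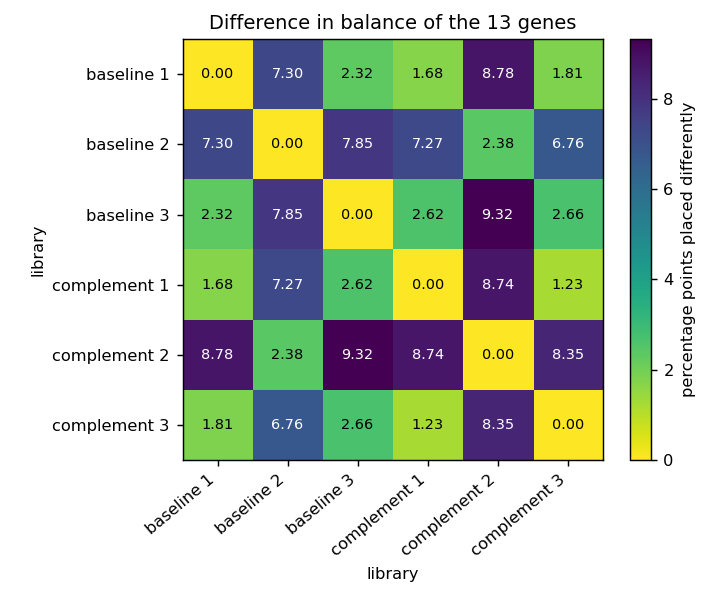
Each cell gives, for a pair of libraries, the percentage points of protein-coding mitochondrial counts placed on different genes (axes: the 6 libraries; color and number: points). Baseline replicate 2 and complement replicate 2 lie 2.38 points apart and 6.76 to 9.32 points from the other 4 libraries.

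**Figure D4:**
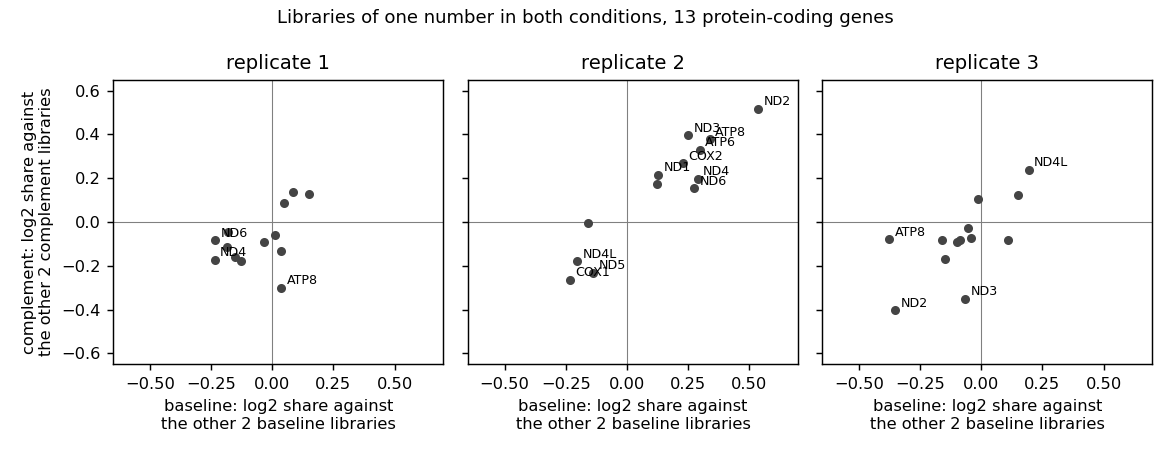
Each point is 1 of the 13 protein-coding genes; the x axis gives the log2 share in the baseline library of that number minus the mean of the other 2 baseline libraries, and the y axis the same for complement NPSC. In the middle panel (replicate 2) all 13 genes lie in the lower left or upper right corner, with ND2 farthest at 0.54 and 0.52 and CYTB almost on the line in complement NPSC.

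The tRNA genes are 59 to 75 bases long, shorter than a full-length read of these libraries, so a read that covers 1 of them whole can reach into the next gene. They held 1257, 2008 and 1204 counts in baseline and 679, 1223 and 1091 in complement NPSC. As a share of mitochondrial counts this was 0.281%, 0.378% and 0.285% in baseline and 0.268%, 0.517% and 0.258% in complement NPSC, again highest in replicate 2 of either condition. Between conditions the share differed by 0.080 on the log2 scale (SE 0.35, exact two-sided permutation p = 1). Of the 22 tRNA genes, 16 had a count in all 6 libraries. The libraries numbered 2 had counts on all 22, and the other libraries on 16 to 18.

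The sharpest difference between libraries lay in the cluster of 5 tRNA genes between ND2 and COX1 (MT:6129-6509), a stretch that in mammals also holds the origin of light-strand synthesis. Summed over the cluster there were 6, 445 and 0 counts in baseline NPSC replicates 1, 2 and 3 and 3, 246 and 3 counts in complement NPSC replicates 1, 2 and 3. That is 62.1 CPM in baseline and 67.6 CPM in complement replicate 2, and at most 0.883 CPM in any other library. The 0 counts of baseline replicate 3 allow up to 0.358 CPM (3 counts of its total, counting error only). The cluster made up 22.2% of tRNA counts in baseline and 20.1% in complement replicate 2, and 0.477% or less elsewhere.

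Most of these counts fell on the tRNA gene at MT:6379-6444, on the − strand. It had 5, 320 and 0 counts in baseline and 3, 188 and 3 in complement NPSC, which is 44.7 and 51.6 CPM in the replicate 2 libraries. The gene at MT:6272-6346, also on the − strand, had 63 counts in baseline replicate 2 and 34 in complement replicate 2, and 0 in the other 4 libraries. The genes at MT:6203-6270 and MT:6444-6509, on the − strand too, had 27 and 17 counts in baseline and 9 and 12 in complement replicate 2, with 0 in every other library. On the + strand gene at MT:6129-6196 there were 18 counts in baseline replicate 2, 3 in complement replicate 2 and 1 in baseline replicate 1. Whether strand was used in counting is not stated, so counts on the − strand genes cannot be told apart from RNA of the + strand precursor. All 5 genes failed the filter on low counts, so edgeR's comparison of the conditions did not include them.

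**Figure D5:**
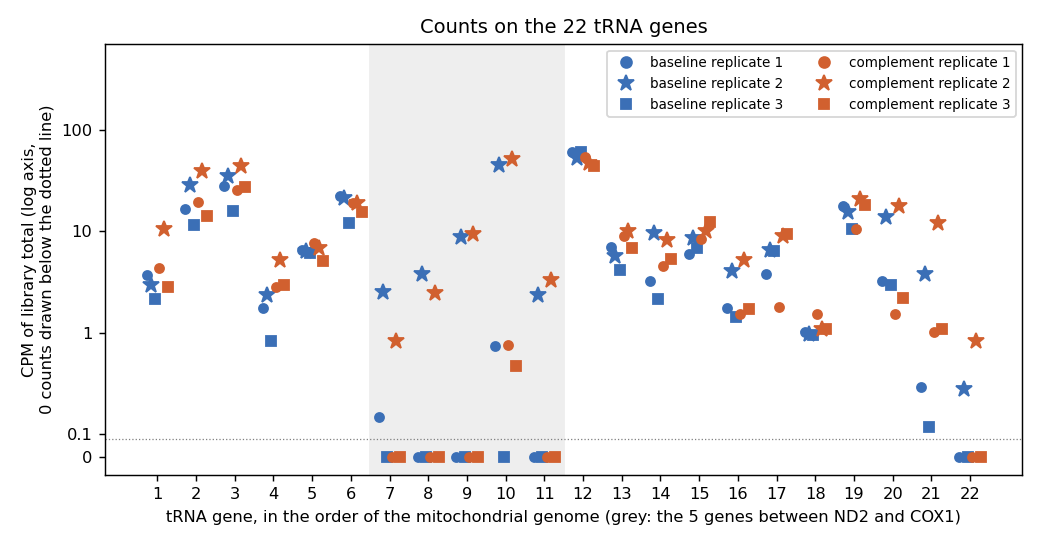
Points give the CPM (log axis, 0 counts drawn below the dotted line) of each of the 22 tRNA genes in genome order, with 1 point per library; color marks the condition and shape the replicate number. In the grey band of 5 genes between ND2 and COX1 the stars of replicate 2 sum to 62.1 and 67.6 CPM while the other 4 libraries sum to at most 0.883 CPM.

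The pattern was not limited to the cluster. For 12 of the 22 tRNA genes, the cluster included, both replicate 2 libraries were above the other 4 in CPM, against 4.09% of all genes with a count. Of the others, that on the − strand between ND6 and CYTB (MT:15267-15335) had 3.24, 13.8 and 2.99 CPM in baseline and 1.53, 17.8 and 2.19 CPM in complement NPSC. The gene right after CYTB (MT:16482-16549) had 0.294, 3.77 and 0.119 CPM in baseline and 1.02, 12.1 and 1.09 CPM in complement NPSC. The tRNA genes between and after the ribosomal RNA genes differed less. The gene at MT:2206-2273 had 16.5, 28.4 and 11.5 CPM in baseline and 19.6, 39.5 and 14.2 CPM in complement NPSC, and that at MT:3845-3919 had 28.0, 35.3 and 15.8 CPM in baseline and 25.5, 44.5 and 27.0 CPM in complement NPSC.

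Not every tRNA gene had this pattern. The gene at MT:5017-5086, just before ND2, had 22.5, 21.2 and 11.9 CPM in baseline and 19.1, 19.2 and 15.6 CPM in complement NPSC. The gene at MT:12865-12934, just before ND5, had 18.0, 15.4 and 10.5 CPM in baseline and 10.4, 20.9 and 18.3 CPM in complement NPSC. In neither gene were both libraries numbered 2 apart from the other 4, and the conditions overlapped; for MT:5017-5086 both libraries numbered 3 were below the others. Baseline replicate 2 had 7160346 counts and an olfactory receptor density of 1.20 CPM per kilobase, and complement replicate 2 had 3641518 counts and 4.43 CPM per kilobase. The part of depth and of counts outside expressed genes in the replicate 2 pattern was not tested.

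The nuclear genes that copy, transcribe, process, stabilize and translate mitochondrial RNA were read from the same fit. Of 44 genes of this list, 34 were matched by name and 32 were tested; 0 had an adjusted p under 0.05 (0.103% of all tested genes), and the lowest was 0.308 (edgeR). Without complement replicate 3 there were 2, FASTK and TUFM, both lower, where 10.1% of all genes tested in that fit were called. With the replicate number as a block there were 3, all lower, where 14.4% of all tested genes were called. At an unadjusted p under 0.05 there were 6 of the 32 in edgeR, against 15.2% of all tested genes. DESeq2 called 0 (0.288% of all genes), with 6 at an unadjusted p under 0.05, against 12.0%. Log2 fold changes were below 0 for 30 and above 0 for 2, with a median of −0.25 beside 0.018 over all tested genes; the median was −0.078 with olfactory receptor density as a covariate. In CPM 6 of the 32 were lower in all 3 complement libraries than in any baseline library and 0 were higher, where 5.43% and 8.86% of all tested genes were.

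LRPPRC, which binds and stabilizes mitochondrial mRNAs, had the highest level of the list, with 149, 178 and 197 CPM in baseline and 139, 141 and 165 CPM in complement NPSC. The groups overlap, and edgeR put the log2 change of LRPPRC at −0.39 (SE 0.24, adjusted p = 0.409). It was 0.059 with olfactory receptor density as a covariate. TUFM, the elongation factor that brings tRNAs to the mitochondrial ribosome, had 122, 125 and 148 CPM in baseline and 102, 109 and 106 CPM in complement NPSC. All complement values of TUFM lay below the baseline values, and the log2 change by edgeR was −0.48 (SE 0.21, adjusted p = 0.309). With olfactory receptor density as a covariate the change of TUFM was −0.205. POLG, the catalytic subunit of the mitochondrial DNA polymerase, had 124, 109 and 101 CPM in baseline and 119, 118 and 101 CPM in complement NPSC. These overlap too, at a log2 change of −0.15 (SE 0.19, adjusted p = 0.656, edgeR).

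The ends of the list were genes with low counts. PRORP, the nuclease subunit of the enzyme that cuts precursors at the 5′ end of tRNAs, had 7.95, 4.89 and 5.14 CPM in baseline and 12.5, 14.6 and 5.31 CPM in complement NPSC. The log2 change of PRORP was 0.63 (SE 0.36, adjusted p = 0.389, edgeR). It was higher in complement replicates 1 and 2, the libraries with the highest olfactory receptor density. With that density as a covariate the log2 change was −0.091 (adjusted p = 0.991, edgeR). Whether counts outside expressed genes have a part in the PRORP values was not tested. MTERF1, a factor that ends mitochondrial transcription, had 7.21, 11.7 and 6.81 CPM in baseline and 8.15, 4.67 and 3.75 CPM in complement NPSC. The log2 change of MTERF1 was −0.85 (SE 0.38, adjusted p = 0.314, edgeR). Its groups overlap through complement replicate 1. For none of these 5 machinery genes did both libraries numbered 2 lie on the same side of the other 4; for PRORP baseline replicate 2 was the lowest and complement replicate 2 the highest of the 6.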

How the data were processed

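The 6 libraries of neonatal pig Sertoli cells, 3 baseline and 3 complement, were grouped by their titles. The authors deposited whole-number read counts per gene, not normalized, with exon positions; the submitters' processing notes name Trimmomatic 0.36, STAR 2.5.2b and featureCounts of Subread 1.5.2. The genome build, annotation release, strand setting, treatment of multi-mapped reads and the RNA selection kit are not given in the sources used here. The files' MT positions were matched to the RefSeq table of Sscrofa11.1, where 33 of 35 genes had the same start and end and from which the tRNA genes were recognized. These tRNA genes carry no symbol there, so they are named by position. The 2 ribosomal RNA genes and all sequences were not analysed here.

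Levels were expressed as CPM of the library total, per kilobase of exon where genes are compared, and balance as the share of the summed protein-coding mitochondrial counts. Libraries of 3641518 to 8371923 counts give intervals that cover counting error only. Conditions were compared over all genes with edgeR 4.0.16 (filterByExpr, TMM factors, quasi-likelihood F test, Benjamini-Hochberg adjustment, threshold 0.05) in R 4.3.3, and shares with exact permutation tests on log2 values. The test was checked on simulated counts. Alternatives were DESeq2 1.42.0, other scalings and filters, a replicate term, olfactory receptor density as a covariate and leaving out libraries. Named genes were all protein-coding members, the 5 tRNA genes with the highest mean count, any member with an adjusted p under 0.05, and of the machinery list the 3 genes with the highest mean CPM and those with the highest and lowest fold change. Other tRNA genes, and machinery genes named for a change under another setting, were chosen after their values were seen. The members and gene lists were chosen with earlier results of these data known.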

Additional observations from a re-analysis of the deposited data

How the results depend on the processing

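The count of mitochondrial genes with an adjusted p under 0.05 between conditions was 0 in each of the 16 fits tried, left-out libraries included. Leaving out 1 library moved the log2 difference of the mitochondrial share between −0.10 and 0.18, that of the tRNA share between −0.25 and 0.26, and the count of protein-coding genes with non-overlapping shares between 0 and 4 (6 without replicate 2 of both conditions). With 1 library left out the count of machinery genes called was 0 to 2. The sign of small fold changes moved with the setting. With the olfactory receptor covariate the log2 fold change was 0.12 for COX1, 0.059 for LRPPRC, −0.091 for PRORP and 0.11 for the median of the protein-coding genes. ND2 was at −0.010 with DESeq2 and between −0.19 and 0.43 with 1 library left out. With 1 library left out COX1 ranged from −0.34 to 0.00022 and the median from −0.26 to 0.12, and without replicate 2 of both conditions they were at 0.091 and 0.12. Upper-quartile scaling put the median of all genes at 0.13 and that of the protein-coding mitochondrial genes at −0.016. The causes were not tested. The count over all genes moved from 18 to 63 with DESeq2, 31 without the filter, 63 with the covariate, 327 without baseline replicate 1, 9 without baseline replicate 2, 1855 without complement replicate 3, and 8 without replicate 2 of both conditions.

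The replicate numbers were not taken as pairs in the main fit. Same-numbered libraries deviated from their group means with r = 0.456, 0.0302 and 0.482 for numbers 1, 2 and 3. Libraries of different numbers ran from −0.501 (baseline 1 with complement 3) to 0.284 (baseline 1 with complement 2). For numbers 1 and 3 the same-numbered library correlated best, whereas baseline replicate 2 correlated best with complement replicate 3 (0.0665). These values do not settle whether the numbers mark pairs. With the replicate block 2515 genes were called (14.4% of those tested), 0 of 27 mitochondrial genes and 3 of 32 of the machinery (FASTK, MTIF2 and GRSF1, all lower), and the log2 differences of the shares were 0.055 and 0.080. A test of the replicate number itself, added after seeing the data, called 5 of 27 mitochondrial genes, where 10.8% of all tested genes were called. Without the filter it called 11 of 35, where 7.62% of all genes with a count were called. The share of ribosomal RNA was planned and has no value, since those genes were not analysed here. Of the 22 tRNA genes 8 did not pass the filter on low counts in the comparison of all 6 libraries.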

Other observations

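After the libraries numbered 2 had been seen to stand apart, the replicate number was tested as a term beside the condition in edgeR's quasi-likelihood fit. Of 27 tested mitochondrial genes, 5 had an adjusted p under 0.05, all of them tRNA genes, where 10.8% of all tested genes did. Of the 13 protein-coding genes 0 passed, with a lowest adjusted p of 0.354 (edgeR). Without the filter on low counts it was 11 of 35, again all tRNA genes, where 7.62% of all genes did. This count includes the tRNA genes between ND2 and COX1, which have counts almost only in the libraries numbered 2. For those genes the outcome was fixed beforehand, so the count is no support for the pattern. The term tests any difference among the 3 numbers and not number 2 alone: of the 5 genes, that at MT:12737-12805 had 3.83, 6.56 and 6.45 CPM in baseline and 1.78, 9.06 and 9.37 CPM in complement NPSC, lowest in both libraries numbered 1. Since the term was added after these counts were seen, its values are a description.

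Between libraries of the same number, complement NPSC differed from baseline NPSC in the same direction in 3 of 3 numbers for 5 of the 13 protein-coding genes by share of protein-coding mitochondrial counts. ND1, ND2 and ND6 were higher and COX3 and ND4L lower. Over all tested genes on this scale 32.3% differed in the same direction in all 3 numbers, and the labels do not say what libraries of the same number share.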
